A study of Mus musculus with 12 samples.

Results

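The *Cyp4a* and *Cyp4f* genes encode cytochrome P450 enzymes of the endoplasmic reticulum that hydroxylate the far (omega) end of fatty acids and related lipids. The 10 genes described here were chosen by name as the fatty acid omega-hydroxylases of mouse liver: the 6 *Cyp4a* genes *Cyp4a12a*, *Cyp4a12b*, *Cyp4a10*, *Cyp4a31*, *Cyp4a32* and *Cyp4a14*, the 3 *Cyp4f* genes *Cyp4f14*, *Cyp4f15* and *Cyp4f13*, and *Cyp4v3*. They are 10 of the 54232 genes in the deposited count table, and all 10 were among the 17509 genes with enough reads to be tested. Liver mRNA was sequenced from 6 WT and 6 LKO mice, with 1 library per mouse. All were male littermates of the C57Bl/6J strain, 10 weeks old, on standard chow and fasted for 4 h. The LKO mice were *Marchf6* fl/fl AlbuminCre+ and lacked an exon of *Marchf6*, a ubiquitin ligase gene, in cells that express Cre from the albumin promoter, which are the hepatocytes. The WT mice were *Marchf6* fl/fl AlbuminCre- and thus carried the floxed allele too, so both groups shared this allele and differed in the Cre transgene as well as in the deletion.

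Omega-hydroxylation is the first step of a side route of fatty acid breakdown. The hydroxylated fatty acid is oxidized by alcohol and aldehyde dehydrogenases to a dicarboxylic acid, which is activated and shortened in peroxisomes. In mouse liver *Cyp4a10* and *Cyp4a14* are well-known targets of the fatty acid receptor PPARA and respond to fasting, whereas *Cyp4a12a* and *Cyp4a12b* are known as male-biased genes. Enzymes of the *Cyp4f* subfamily also act on leukotrienes and on the side chain of vitamin E.

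Total gene counts ran from 14860414 to 22111926 reads a liver, and the 20 most abundant genes took 23.6% to 26.0% of them. Levels are given as normalized CPM, the counts of a gene scaled to a common library size after TMM normalization, which sets the bulk of genes to the same level in each library. Genes were tested with the quasi-likelihood (QL) method of edgeR, p-values were adjusted by Benjamini-Hochberg over the 17509 genes, and SE stands for the standard error. *Marchf6* itself had 241 ± 8.36 normalized CPM in WT and 226 ± 16.5 in LKO livers (SD, n = 6 each), with no call (log2 fold change −0.09, adjusted p = 0.585, edgeR). This count covers the whole gene, of which the deleted exon is a small part, so the genotype was taken from the labels. The summed level of 6 hepatocyte markers was 92472 to 111745 normalized CPM in WT and 82835.5 to 96354 in LKO livers, so the markers of the labelled tissue were abundant in all livers. Library numbers are lower in the WT than in the LKO group, so genotype and library order cannot be told apart, and the labels name no other batch.

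The *Cyp4a* genes lie side by side on chromosome 4 (GRCm38), in 322.557 kb from 115299046 to 115621602, and the *Cyp4f* genes lie on chromosome 17, in 261.776 kb from 32685627 to 32947402. *Cyp4v3* stands alone on chromosome 8 from 45304944 to 45333216. The coding sequences of *Cyp4a12a* and *Cyp4a12b* were 98.5% identical, with 23 differing bases of 1527. *Cyp4a10*, *Cyp4a31* and *Cyp4a32* shared 96.0% to 97.2% of their bases with one another. *Cyp4a14* was 75.5% identical to *Cyp4a10*, the *Cyp4f* genes shared 74.3% to 80.0% among themselves, and *Cyp4v3* shared 50.1% to 52.3% with every other gene of the 10.

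The stretch around the cysteine that holds the heme iron shows this kinship. It was found in each gene by a search of the translated coding sequence for the P450 heme signature, which matched once per gene, and it crosses the junction of 2 exons. The 30 bases are shown for 1 gene of each group, with the cysteine codon in capitals and the intron left out.
Cyp4a12a (exons 11 and 12 of 12, plus strand, chr4:115328986-115331846): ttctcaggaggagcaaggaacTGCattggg
Cyp4a10 (exons 11 and 12 of 13, plus strand, chr4:115529502-115532543): ttctcaggaggagccaggaacTGCattggg
Cyp4a14 (exons 11 and 12 of 12, minus strand, chr4:115487299-115489805): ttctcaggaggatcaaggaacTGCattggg
Cyp4f14 (exons 11 and 12 of 12, minus strand, chr17:32905666-32906065): ttctcggcgggacccaggaacTGCatagga
Cyp4v3 (exons 10 and 11 of 11, minus strand, chr8:45307107-45308407): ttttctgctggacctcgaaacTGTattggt
*Cyp4a12b* had the same 30 bases as *Cyp4a12a*, and *Cyp4a31* and *Cyp4a32* the same as *Cyp4a10*. *Cyp4a12a* differed from *Cyp4a10* and from *Cyp4a14* at 1 base each, from *Cyp4f14* at 7 and from *Cyp4v3* at 10.

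Where copies are this close, a read can fit more than 1 gene. Of the coding stretches of 50 bases, 54.9% of those of *Cyp4a12a* and of *Cyp4a12b* occurred in the other copy without a mismatch, as did 40.6% for *Cyp4a10*, 31.5% for *Cyp4a31* and 46.8% for *Cyp4a32* in their own copies. For *Cyp4a14* the share was 0.407%, and for the *Cyp4f* genes it was 3.02% to 3.87%. The part of the *Cyp4a12* coding sequence where the copies differ most is shown with the differing bases in capitals, since reads over such bases are what tells the copies apart. The 60 bases lie on the plus strand across exons 5 and 6 of 12, with the intron left out.
Cyp4a12a (chr4:115326309-115326681): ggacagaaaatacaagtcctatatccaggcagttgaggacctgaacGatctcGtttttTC
Cyp4a12b (chr4:115432561-115432934): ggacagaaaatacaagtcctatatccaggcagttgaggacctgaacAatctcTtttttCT
The same is shown for the *Cyp4a10* copies, in exon 2 on the plus strand, with each base at which the 3 genes are not all alike in capitals.
Cyp4a10 (chr4:115519640-115519699): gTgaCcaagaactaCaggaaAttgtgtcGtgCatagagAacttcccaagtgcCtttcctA
Cyp4a31 (chr4:115565020-115565079): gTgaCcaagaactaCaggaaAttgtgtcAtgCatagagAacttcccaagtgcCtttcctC
Cyp4a32 (chr4:115602270-115602329): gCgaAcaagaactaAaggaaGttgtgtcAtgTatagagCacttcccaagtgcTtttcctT
How reads that fit several copies were assigned is not given in the sources used here, so the level of 1 copy is uncertain, and the copies are also given as sums.

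Of the 10 genes, 3 had an adjusted p under 0.05 (edgeR), *Cyp4a12a* and *Cyp4a12b* higher and *Cyp4v3* lower in LKO livers. Among all 17509 genes tested, 0.428% passed, 0.274% higher and 0.154% lower. In the same 3 genes the 6 LKO livers all lay on one side of the 6 WT livers, which held for 1.30% of all genes. An unadjusted p under 0.05 was found for 6 of the 10 genes and for 11.7% of all genes. The log2 fold change was above 0 in 6 genes, the *Cyp4a* genes, and below 0 in 4, with a median of 0.49, against 0.00016 over all genes tested. The near-identical copies can share reads, so these counts and the median are not over independent genes.

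**Figure D1:**
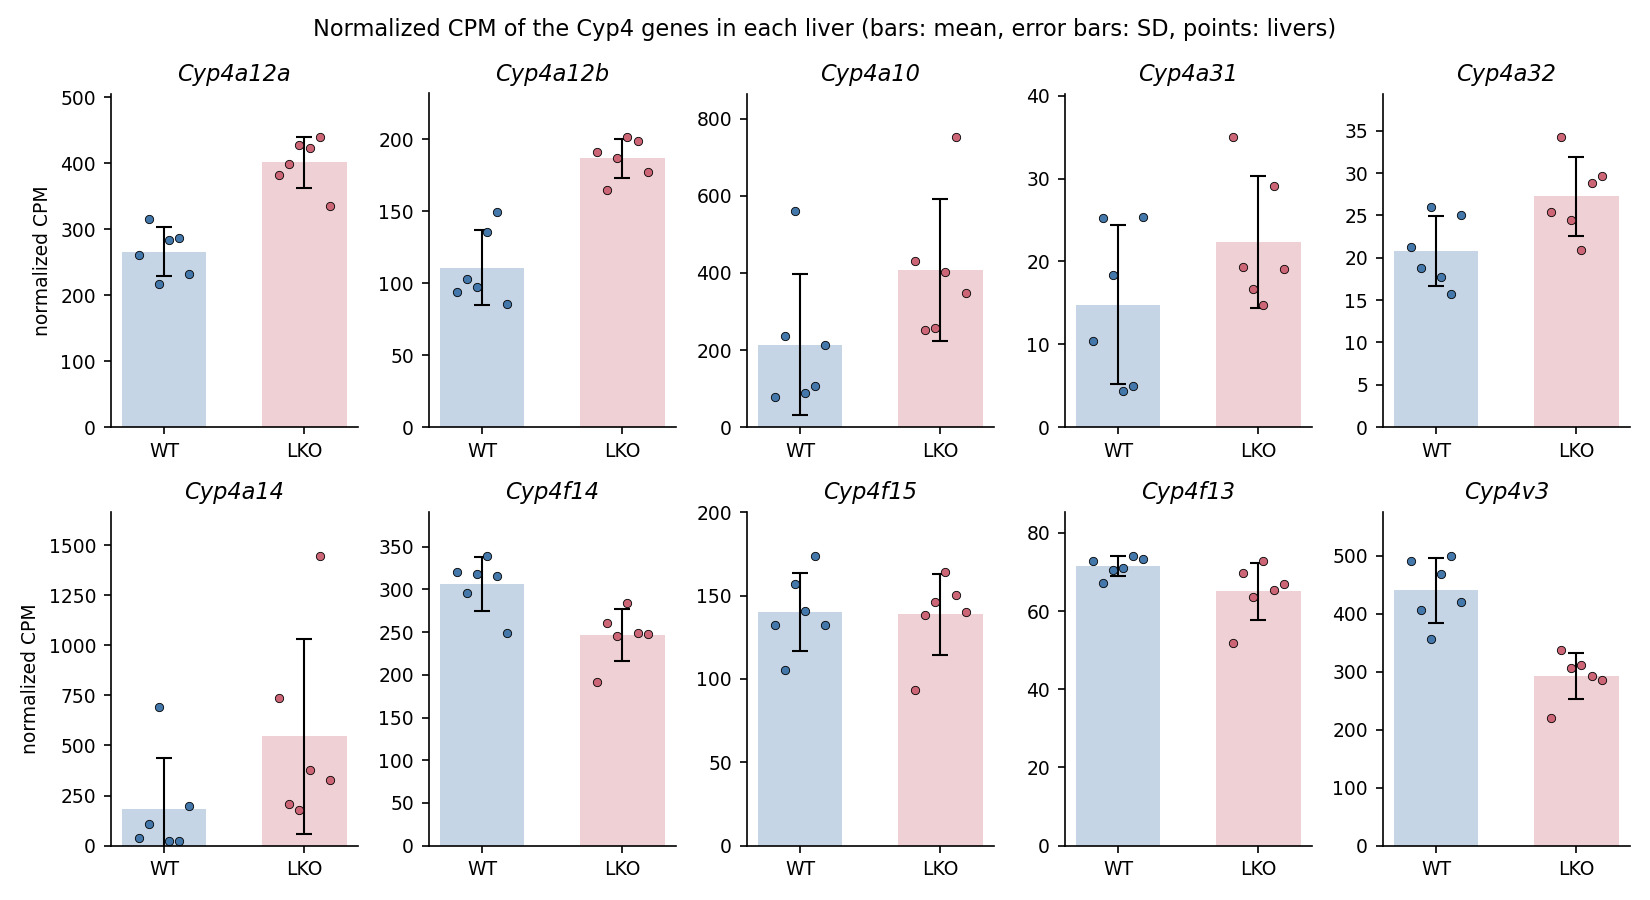
Normalized CPM of the 10 genes (vertical axes, each from 0 with its own scale) in WT and LKO livers, with 1 point per liver, bars at the mean and error bars of 1 SD, cut off at 0 for *Cyp4a14*. The points of the groups do not overlap for *Cyp4a12a*, *Cyp4a12b* and *Cyp4v3*, while *Cyp4a14* spans 23.0 to 1448 over the 12 livers.

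**Figure D2:**
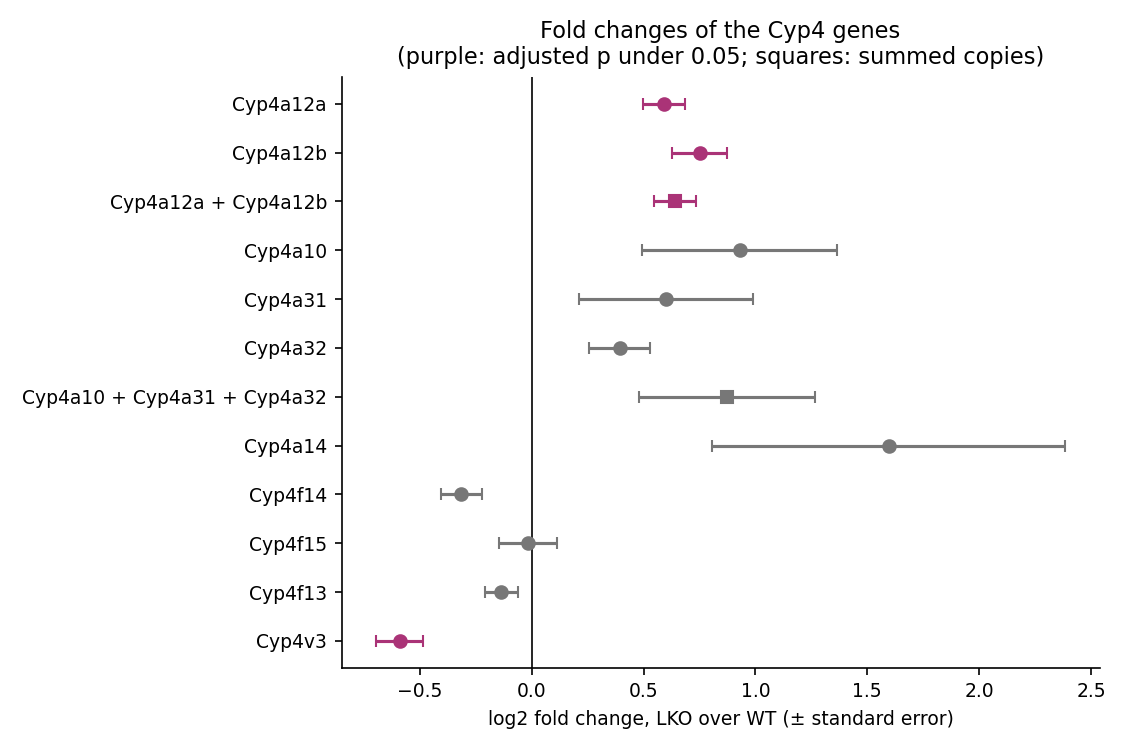
Log2 fold change of LKO over WT (horizontal axis) with its standard error for each gene and for the summed near-identical copies (squares). Purple marks an adjusted p under 0.05 in edgeR's QL test. *Cyp4a12a*, *Cyp4a12b* and their sum are above 0, *Cyp4v3* is below, and *Cyp4a14* has the widest error.

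*Cyp4a12a*, on the plus strand of chromosome 4 from 115299046 to 115332815, encodes the main arachidonic acid omega-hydroxylase of the male mouse. Its lowest, median and highest normalized CPM were 218, 272 and 315 in WT and 336, 411 and 439.6 in LKO livers. The lowest LKO liver was above the highest WT liver. The mean rose from 266 ± 36.6 to 401 ± 38.2 (SD, n = 6 each), 1.51-fold, with a log2 fold change of 0.59 (SE 0.095, adjusted p = 0.00999, edgeR). In bulk liver the number of cells of a type and the RNA per cell cannot be told apart, for this and for every other gene.

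*Cyp4a12b*, its close copy from 115411624 to 115439034, had 85.7, 100.3 and 149.8 normalized CPM as lowest, median and highest value in WT and 165, 189 and 202 in LKO livers. Again the groups did not overlap. The mean rose 1.68-fold from 111 ± 25.8 to 187 ± 13.7 (SD, n = 6 each), with a log2 fold change of 0.75 (SE 0.124, adjusted p = 0.0121, edgeR). A small noncoding gene, *Gm12837*, lies inside *Cyp4a12b* on the other strand and had 0 to 7 reads per liver, against 1332 to 4617 for *Cyp4a12b*.

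The sum of both copies does not depend on how shared reads were split between them. It would still lack any shared reads that the counting dropped. It rose from 377 ± 54.7 to 588 ± 46.9 normalized CPM (SD, n = 6 each), with a log2 fold change of 0.64 (SE 0.094, adjusted p = 0.00592, edgeR). The highest WT liver had 437 and the lowest LKO liver 513. *Cyp4a12a* held 65.7% to 75.3% of the sum in WT and 65.4% to 70.7% in LKO livers. The log2 ratio of *Cyp4a12a* to *Cyp4a12b* was lower by 0.18 in LKO livers, a difference within the spread between livers (exact permutation test, two-sided p = 0.162, adjusted p = 0.195 over 6 ratios). Both genes and their sum stayed past the threshold with any 1 liver left out, with adjusted p up to 0.0354, 0.0452 and 0.0243 (edgeR).

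*Cyp4a10*, a PPARA target that hydroxylates medium-chain and long-chain fatty acids, lies from 115518264 to 115533649. Its lowest, median and highest normalized CPM were 77.9, 159.9 and 561 in WT and 252, 375 and 753 in LKO livers. All 6 LKO livers were above the WT mean, but 1 of them was above the highest WT liver, replicate 3. The means were 214 ± 182 and 407 ± 184 (SD, n = 6 each), and the log2 fold change of 0.93 (SE 0.435) did not pass (adjusted p = 0.427, edgeR). Without WT replicate 3 it was 1.497, with an adjusted p of 0.0706 (edgeR).

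*Cyp4a31*, from 115563649 to 115579015, was the least abundant of the 10 genes. It had 4.38, 14.4 and 25.4 normalized CPM as lowest, median and highest value in WT and 14.7, 19.2 and 35.0 in LKO livers (log2 fold change 0.60, SE 0.389, adjusted p = 0.585, edgeR). The groups overlapped between 14.7 and 25.4, and 2 LKO livers were above the highest WT liver. *Cyp4a32*, from 115600969 to 115621602, had 15.7, 19.99 and 26.0 in WT and 20.9, 27.1 and 34.3 in LKO livers (log2 fold change 0.39, SE 0.136, adjusted p = 0.256, edgeR). For this gene 6 of 6 LKO livers were above the WT mean and 3 were above the highest WT liver.

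The sum of *Cyp4a10*, *Cyp4a31* and *Cyp4a32* had a mean of 249.6 ± 190.4 normalized CPM in WT and 457 ± 189 in LKO livers (SD, n = 6 each). Its log2 fold change of 0.87 (SE 0.395) did not pass either (adjusted p = 0.405, edgeR). *Cyp4a10* made up 71.1% to 92.7% of this sum in WT and 82.5% to 92.9% in LKO livers. The share of *Cyp4a32* ran from 4.30% to 19.4% in WT and from 3.55% to 11.2% in LKO livers.

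*Cyp4a14*, on the minus strand from 115486200 to 115496142, is a PPARA target that is strongly raised by fasting and by fatty acids. Its lowest, median and highest normalized CPM were 23.0, 73.6 and 691 in WT and 176, 354 and 1448 in LKO livers. The highest WT liver, replicate 3, was above 4 of the 6 LKO livers, and 5 of 6 LKO livers were above the WT mean. The means were 181 ± 259 and 546 ± 485 (SD, n = 6 each), 3.02-fold apart. The log2 fold change of 1.60 (SE 0.788), the largest of the 10 genes in size, did not pass (adjusted p = 0.456, edgeR). It was 2.80 (adjusted p = 0.0896, edgeR) without WT replicate 3 and 1.02 (adjusted p = 0.698, edgeR) without LKO replicate 5.

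*Cyp4a14* also varied most among mice of 1 genotype. Its highest liver exceeded its lowest 30.1-fold in WT and 8.25-fold in LKO livers, and 8.59-fold in WT without replicate 3 and 4.19-fold in LKO without replicate 5. The coefficient of variation in WT livers was 143% for *Cyp4a14*, 85.2% for *Cyp4a10* and 64.8% for *Cyp4a31*, against a median of 13.2% over 12775 tested genes with a mean of at least 1 normalized CPM. Of these genes, 99.95% varied less than *Cyp4a14* in WT and 99.6% in LKO livers. Without WT replicate 3 the coefficients in WT were 94.9% for *Cyp4a14*, 51.0% for *Cyp4a10* and 74.8% for *Cyp4a31*. *Cyp4a12a* (13.8%), *Cyp4f14* (10.3%) and *Cyp4v3* (12.7%) lay near the median. *Cyp4f13* was steady among the WT mice at 3.54%, and 1.83% of genes varied less.

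*Cyp4f14* encodes the mouse enzyme that starts the breakdown of the vitamin E side chain. It lies on the minus strand of chromosome 17 from 32905070 to 32917342. Its lowest, median and highest normalized CPM were 249, 317 and 339.7 in WT and 192, 248 and 284 in LKO livers. No LKO liver reached the WT mean, and 3 of 6 were below the lowest WT liver. The means of 306 ± 31.5 and 246 ± 30.4 (SD, n = 6 each) gave a log2 fold change of −0.31 (SE 0.093), which did not pass (unadjusted p = 0.00435, adjusted p = 0.181, edgeR).

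The other *Cyp4f* genes belong to the subfamily of leukotriene hydroxylases. *Cyp4f15*, from 32685627 to 32703352, had 106, 136 and 174 normalized CPM as lowest, median and highest value in WT and 93.1, 143 and 164 in LKO livers (log2 fold change −0.02, SE 0.131, adjusted p = 0.978, edgeR). The groups covered nearly the same range. *Cyp4f13*, from 32924688 to 32947402, had 67.1, 71.9 and 74.2 in WT and 51.8, 66.1 and 72.8 in LKO livers (log2 fold change −0.14, SE 0.074, adjusted p = 0.499, edgeR). Here 4 of 6 LKO livers were below the lowest WT liver, and 1 was above the WT mean.

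*Cyp4v3*, the counterpart of the human gene *CYP4V2*, encodes a fatty acid omega-hydroxylase that is distant from the others in sequence. Its lowest, median and highest normalized CPM were 356, 444 and 500.1 in WT and 220.0, 299 and 338 in LKO livers. Every LKO liver was below every WT liver. The mean fell from 440.2 ± 55.7 in WT to 292 ± 39.8 in LKO livers (SD, n = 6 each; log2 fold change −0.59, SE 0.105, adjusted p = 0.0197, edgeR). The adjusted p was 0.0592 without WT replicate 1, 0.0551 without WT replicate 4 and 0.0646 without WT replicate 5 (edgeR). Another gene on the same strand, *Gm45753*, from 45269671 to 45308466, overlaps the end of *Cyp4v3*, shares 13.8% of its coding stretches of 50 bases and had 0 to 3 reads per liver, against 4730 to 9552 for *Cyp4v3*.

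Levels can be compared between genes only per length, so normalized CPM were divided by the kb of merged exon. This length depends on the annotation. It was 4441 bases for *Cyp4f13* and 1536 for *Cyp4a32*, with coding sequences of 1572 and 1530 bases, so the places of these genes are uncertain. In WT livers the mean levels per kb were 127 for *Cyp4f14*, 116 for *Cyp4v3*, 109.8 for *Cyp4a12a*, 101 for *Cyp4a10*, 69.5 for *Cyp4a14*, 61.5 for *Cyp4f15* and 46.3 for *Cyp4a12b*, and each gene in this order overlapped the next in its range over the livers. *Cyp4f13* followed at 16.1, clear of *Cyp4a12b*, then *Cyp4a32* at 13.5, which overlapped *Cyp4f13*, and *Cyp4a31* at 5.89, clear of *Cyp4a32*. The place of *Cyp4a14* rested on WT replicate 3: without this liver its mean was 30.2 per kb, below *Cyp4f15* (59.99) and *Cyp4a12b* (47.5), and that of *Cyp4a10* was 68.5.

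In LKO livers the mean levels per kb of *Cyp4a14* (209.9), *Cyp4a10* (193) and *Cyp4a12a* (166) were not separated, since their ranges overlapped and their order rested on LKO replicate 5. Without this liver the means were 140.5, 160.4 and 162, and the medians over all 6 livers were 136, 178 and 169.6. *Cyp4f14* was at 102, below the range of *Cyp4a12a*. *Cyp4a12b* at 78.0, *Cyp4v3* at 76.8 and *Cyp4f15* at 60.8 each overlapped the gene before. *Cyp4a32* at 17.7 was clear of *Cyp4f15*, and *Cyp4f13* at 14.6 and *Cyp4a31* at 8.90 again overlapped the gene before. Levels of the copies are those of the deposited counts, and the part of reads that fit several copies was not tested.

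**Figure D3:**
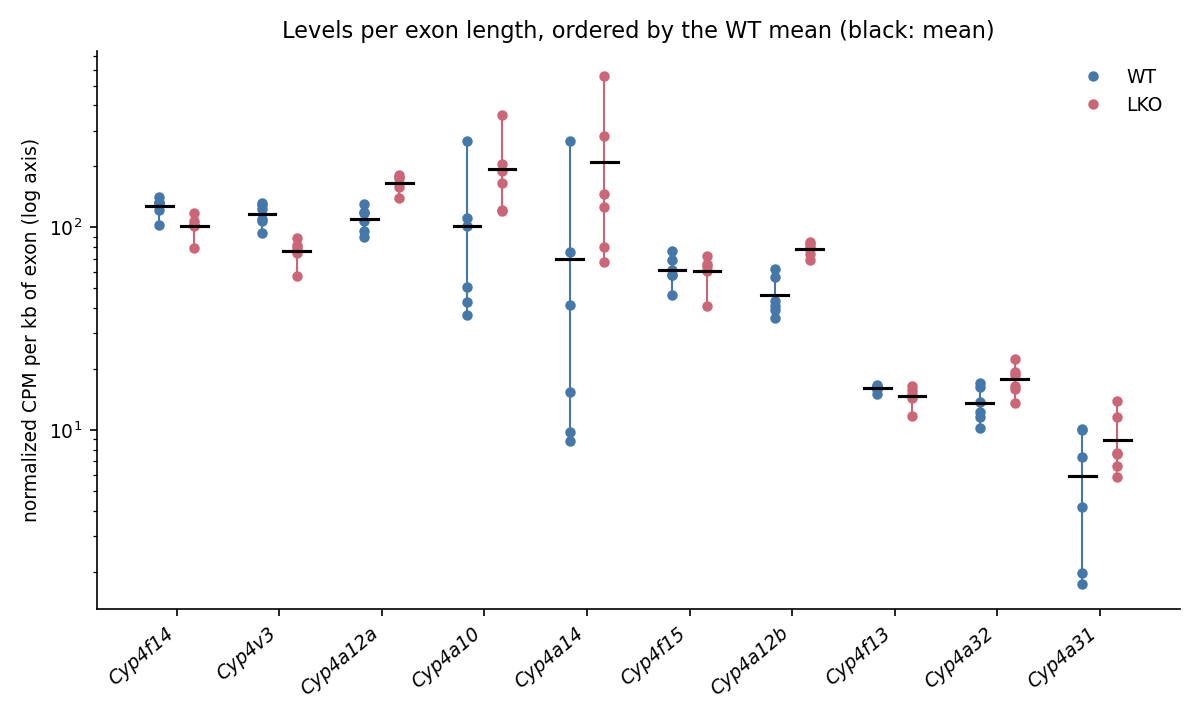
Normalized CPM per kb of merged exon (vertical log axis) of the 10 genes, ordered by their WT mean, with 1 point per liver, a line over the range and a black bar at the mean. *Cyp4a10* and *Cyp4a14* span the widest ranges, and *Cyp4f13*, *Cyp4a32* and *Cyp4a31* have the lowest means. The lowest WT liver of *Cyp4a14*, at 8.82, lies below every WT liver of *Cyp4f13* and *Cyp4a32*.

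Summed over the 10 genes, the normalized CPM ran from 1520 to 2514 with a median of 1653 in WT livers and from 1849 to 3654 with a median of 2127 in LKO livers. The *Cyp4a* genes took 33.2% to 64.1% of this sum in WT and 57.2% to 79.3% in LKO livers. *Cyp4a14* alone took 1.46% to 27.5% in WT and 9.49% to 39.6% in LKO livers. The 3 *Cyp4f* genes together had 454 to 564 normalized CPM in WT and 337 to 521 in LKO livers. These sums and shares were not divided by exon length, so longer genes weigh more in them.

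Of 6 log2 ratios between members, computed per liver and tested between the genotypes by exact permutation, 1 passed after adjustment over the 6. The ratio of the *Cyp4a12* sum to *Cyp4f14* was 0.29 ± 0.20 in WT and 1.26 ± 0.20 in LKO livers (SD, n = 6 each), higher by 0.97 (exact permutation test, two-sided p = 0.00216, the smallest these groups allow, adjusted p = 0.0130). Its highest WT value was 0.50 and its lowest LKO value 1.05. The ratio of *Cyp4a14* to the *Cyp4a10* sum was higher by 1.21 (exact permutation test, p = 0.0325, adjusted p = 0.0649), and that of *Cyp4f14* to *Cyp4f15* lower by 0.30 (exact permutation test, p = 0.0260, adjusted p = 0.0649). The ratio of the *Cyp4a12* sum to the *Cyp4a10* sum (difference −0.43, adjusted exact permutation p = 0.396) and to *Cyp4a14* (−1.65, adjusted exact permutation p = 0.182) did not pass either. Without WT replicate 3 the ratios of the *Cyp4a12* sum to *Cyp4a14* (−2.31, adjusted exact permutation p = 0.0390), of *Cyp4a14* to the *Cyp4a10* sum (1.51, 0.0325) and of *Cyp4f14* to *Cyp4f15* (−0.32, 0.0455) passed, the last also without WT replicate 5 (−0.35, 0.0455).

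Members were then compared across the 12 livers with the mean of each genotype removed from the log2 values. Of 21 pairs among the *Cyp4a12* sum, the *Cyp4a10* sum and 5 single genes, 1 passed. The *Cyp4a10* sum and *Cyp4a14* varied together from liver to liver (Pearson's r = 0.97, permutation p = 7.00e-05, adjusted p = 0.00147, Spearman's rho = 0.94, permutation p = 0.00027, adjusted p = 0.00567). The r was 0.97 among WT and 0.98 among LKO livers, and 0.92 without the 2 livers farthest from the median. Between the *Cyp4a12* sum and *Cyp4a14* no relation passed the threshold (r = −0.50, permutation p = 0.161, adjusted p = 0.338, rho = −0.50, permutation p = 0.167, adjusted p = 0.389), with r of −0.78 in WT and 0.33 in LKO livers and −0.09 without the 2 farthest livers.

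*Cyp4v3* was lower in livers with more *Cyp4a14*, but this relation missed the threshold (r = −0.73, permutation p = 0.00736, adjusted p = 0.0515, rho = −0.70, permutation p = 0.0226, adjusted p = 0.0965). Its r was −0.94 in WT, −0.51 in LKO and −0.75 without the 2 farthest livers. *Cyp4v3* was likewise lower with a higher *Cyp4a10* sum (r = −0.70, permutation p = 0.0126, adjusted p = 0.0531, rho = −0.72, adjusted permutation p = 0.0965). That r was −0.97 in WT and −0.37 in LKO livers. *Cyp4v3* and *Cyp4f13* gave r = 0.76 (permutation p = 0.0118, adjusted p = 0.0531, rho = 0.71, adjusted permutation p = 0.0965). Neither pair passed. *Cyp4f15* and *Cyp4f13* gave r = 0.80 (permutation p = 0.00598, adjusted p = 0.0515, rho = 0.48, permutation p = 0.118, adjusted p = 0.355), which fell to 0.27 without the 2 farthest livers and so rests on them.

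**Figure D4:**
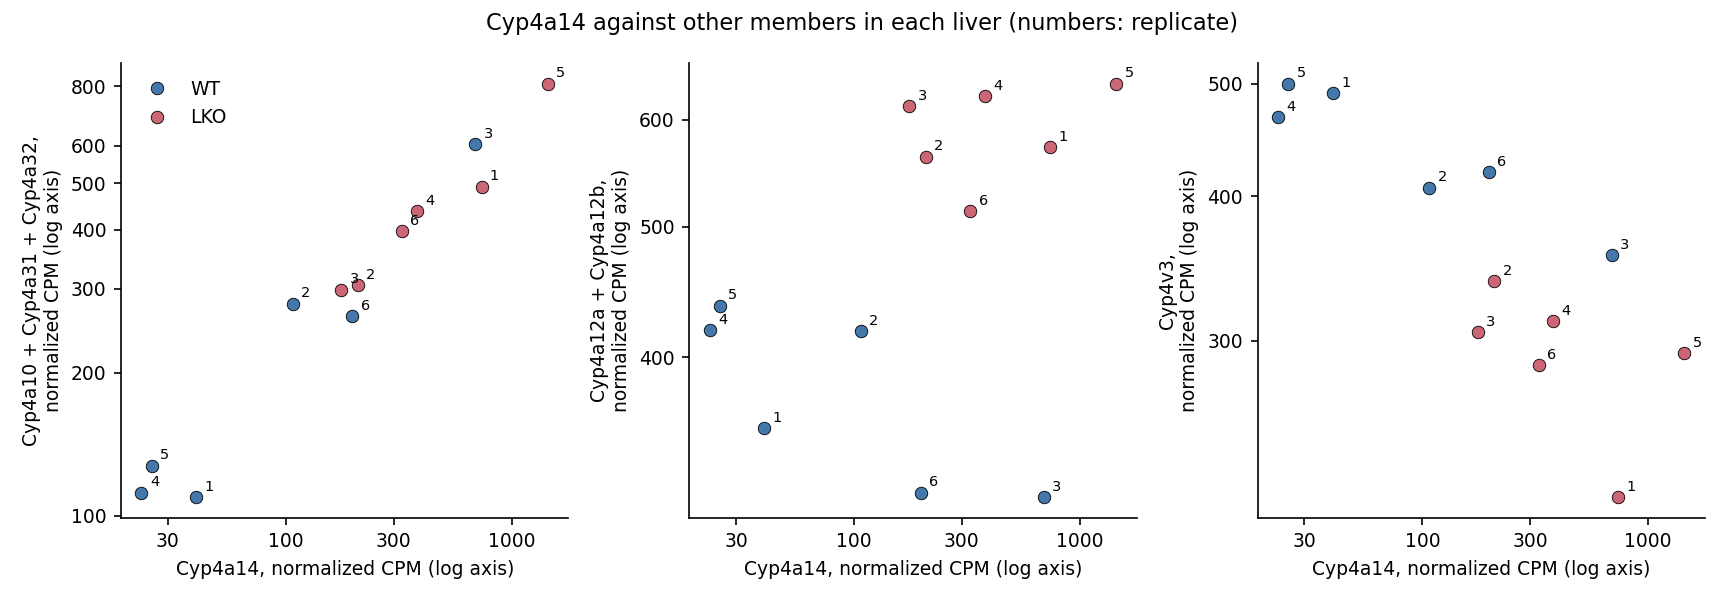
Normalized CPM of *Cyp4a14* (horizontal log axes) against the summed *Cyp4a10* copies, the summed *Cyp4a12* copies and *Cyp4v3* (vertical log axes), with 1 numbered point per liver. The *Cyp4a10* copies follow *Cyp4a14* in both genotypes (r = 0.97 with the genotype means removed), while the *Cyp4a12* copies do not overlap between the genotypes.

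The genes most alike to 4 of these measures over the 12 livers, again with genotype means removed, were looked up among 12765 other genes as a description. For *Cyp4a14* they were *Acot1*, an acyl-CoA thioesterase and PPARA target (r = 0.98), *Gm13910* (r = 0.96) and *Crat*, the carnitine acetyltransferase (r = 0.95). For the *Cyp4a10* sum they were *Acot1* (r = 0.97), *Gm13910* (r = 0.96) and *Cpox*, a heme synthesis enzyme (r = 0.93). For the *Cyp4a12* sum the values were lower, with *1300014J16Rik* (r = 0.88), *Ugt1a9*, a glucuronosyltransferase (r = 0.84), and *Nucb1* (r = 0.84). For *Cyp4f14* they were *Lipc*, the hepatic lipase (r = 0.945), *Mthfd1*, an enzyme of folate metabolism (r = 0.94), and *Sdc2*, a heparan sulfate proteoglycan (r = 0.94). None of these genes passed between the genotypes, the lowest adjusted p being that of *Crat* (log2 fold change 0.71, adjusted p = 0.215, edgeR). With 12765 genes searched over 12 livers, r values like those of the *Cyp4a12* sum can arise by chance, which was not tested. *1300014J16Rik* was also weakly expressed, with means of 1.81 and 1.71 normalized CPM in WT and LKO livers.

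Around the members, 11 lists of genes of the same route, its regulators and broader liver expression patterns held 137 genes, of which 120 were tested and 1 passed, 0.833% against 0.428% of all genes. From each list the genes named are those that passed, or else at most the 2 most abundant. Of the other *Cyp4* genes, 4 of 10 had enough reads, and none passed. *Cyp4f17* had 12.0 and 14.4 and *Cyp4b1* 7.46 and 9.63 normalized CPM in WT and LKO livers (adjusted p = 0.57 and 0.246, edgeR). Among 4 electron donors of microsomal P450s none passed, with *Cyb5r3*, which reduces cytochrome b5, at a log2 fold change of 0.16 and *Cyb5a*, cytochrome b5 itself, at −0.06 (adjusted p = 0.532 and 0.778, edgeR).

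Of 9 dehydrogenases that follow omega-hydroxylation none passed, and the median log2 fold change was −0.06. *Aldh2* was at 0.02 and *Adh1* at 0.17 (adjusted p = 0.955 and 0.531, edgeR). *Aldh3a2*, the fatty aldehyde dehydrogenase, was chosen for its role after its values were seen and had 250.1 ± 58.6 normalized CPM in WT and 333 ± 93.7 in LKO livers (SD, n = 6 each, log2 fold change 0.41, adjusted p = 0.378, edgeR). Of 18 peroxisomal genes tested, 13 were higher and 5 lower in LKO livers, with a median log2 fold change of 0.19 and none past the threshold. An unadjusted p under 0.05 was found for 7 of the 18 (edgeR), against 11.7% of all genes. *Scp2*, a thiolase and lipid carrier and 1 of the 5 lower genes, was at −0.16 (adjusted p = 0.412, edgeR).

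Of 9 genes of PPARA and its partners none passed. *Ppara* itself, named for its role after its values were seen, had 168 ± 20.6 normalized CPM in WT and 145 ± 9.68 in LKO livers (SD, n = 6 each, log2 fold change −0.21, adjusted p = 0.324, edgeR). *Fabp1*, a liver fatty acid binding protein, was at 0.11 and *Rxra*, the partner receptor, at −0.20 (adjusted p = 0.698 and 0.247, edgeR). Of 24 other PPARA targets tested, 17 were higher and 7 lower, with a median of 0.12 and none past the threshold. An unadjusted p under 0.05 was found for 6 of the 24 (edgeR), against 11.7% of all genes. Such values were not particular to these lists. They were found for 7 of 13 male-biased, 4 of 9 PPARA and partner, 4 of 10 pericentral and 2 of 9 dehydrogenase genes (edgeR). The other lists had 2 of 7 female-biased, 1 of 4 other *Cyp4*, 1 of 10 periportal, 0 of 12 clock and 0 of 4 electron donor genes. *Cpt1a*, of mitochondrial fatty acid import and 1 of the 7 lower genes, was at −0.10 (adjusted p = 0.684, edgeR).

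The *Cyp4a12* genes are male-biased, and the other male-biased genes lay mostly on the other side of 0. Of 13 such genes, 12 were lower in LKO livers, with a median log2 fold change of −0.81, and *Susd4*, a complement regulator, passed. It fell from 34.0 ± 6.78 to 17.0 ± 4.64 normalized CPM (SD, n = 6 each, adjusted p = 0.0270, edgeR). With 1 liver left out it passed in 5 of 12 fits, and its adjusted p was 0.0504 to 0.0758 (edgeR) without WT replicate 1, 4, 5 or 6 or LKO replicate 1, 2 or 6. Higher in LKO livers were 6 of the 7 tested female-biased genes, with a median of 0.36 and none past the threshold. *Cyp17a1*, a steroid hydroxylase, was at 1.10 and *Fmo2* at 0.28 (adjusted p = 0.0921 and 0.816, edgeR).

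The remaining lists had medians nearer to 0 and no gene past the threshold. Of 12 clock genes 9 were lower (median log2 fold change −0.10), with *Tef* at 0.02 and *Nr1d1* at −0.14 (adjusted p = 0.989 and 0.824, edgeR). Of 10 genes of pericentral hepatocytes 6 were lower (median −0.15), with *Cyp2e1* at 0.02 and *Glul* at −0.0065 (adjusted p = 0.962 and 0.985, edgeR). Of 10 genes of periportal hepatocytes 8 were lower (median −0.14), with *Cps1* at −0.17 and *Pck1* at −0.08 (adjusted p = 0.549 and 0.869, edgeR).

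**Figure D5:**
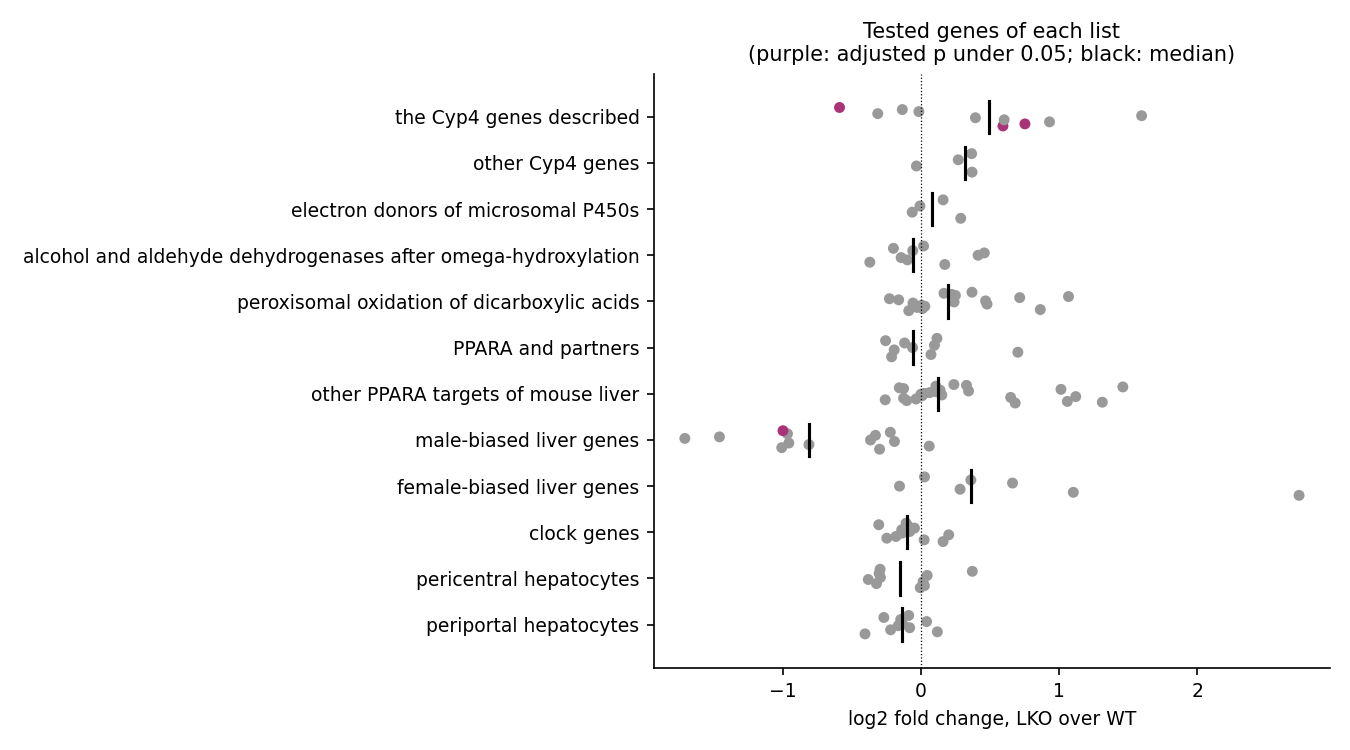
Log2 fold change of LKO over WT (horizontal axis) for each tested gene of the lists, with the 10 genes described in the top row, 1 point per gene and a black bar at the median. Purple marks an adjusted p under 0.05 (edgeR), which 3 of the 10 genes and 1 gene of the other lists, *Susd4*, reached. The male-biased list has its median at −0.81.

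Markers of other liver cells were compared in the same way. All 7 Kupffer cell markers were higher in LKO livers (median log2 fold change 0.44), with a summed level of 83.5 to 113 normalized CPM in WT and 107 to 183 in LKO livers. Stellate cell markers were higher in 7 of 7 genes (median 0.22, summed level 162 to 248 and 190 to 284), endothelial markers in 5 of 6 (median 0.08, 129.6 to 168 and 140.2 to 175) and cholangiocyte markers in 3 of 5 (median 0.25, 37.0 to 63.5 and 34.1 to 129). Hepatocyte markers were lower in 5 of 6 genes (median −0.11). The 4 B cell markers were higher (median 0.87), at summed levels of 0.647 to 1.21 in WT and 1.26 to 2.19 in LKO livers. Of 4 neutrophil markers the 2 tested were higher (median 2.91, 0.0524 to 0.484 and 0.645 to 3.95), and of 4 T cell markers 2 were tested, 1 of them higher (median −0.16, 1.57 to 2.63 and 0.837 to 2.60). None of these markers passed the threshold, and none of them was at 0 in all livers. An unadjusted p under 0.05 was found for 6 of 7 Kupffer cell, 3 of 4 B cell and 2 of 2 tested neutrophil markers (edgeR). It was found for 2 of 6 hepatocyte, 1 of 5 cholangiocyte, 1 of 6 endothelial, 1 of 7 stellate and 0 of 2 tested T cell markers (edgeR). Their part in the differences of the *Cyp4* genes was not tested.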

How the data were processed

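Liver mRNA libraries of 6 WT and 6 LKO male mice, grouped by the genotype in the labels, were made by the authors with a KAPA mRNA HyperPrep kit. The authors trimmed reads with Trimmomatic 0.36, aligned them with HISAT2 2.1.0 (GRCm38), used HTSeq 0.6.1 for gene counts and deposited these raw counts with no normalization or filter. Strand setting, read length and treatment of reads that fit several genes are not given in the sources used here, so overlapping genes and copies are uncertain. Total counts ran from 14860414 to 22111926 per liver. Reads carry no molecular identifiers, so depth describes counting error only.

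Symbols, positions, exon lengths and coding sequences came from GENCODE M21 (GRCm38), which matched 54165 of 54232 gene identifiers. A gene was kept where 6 or more livers had over 2 reads each, which left 17509 genes. The kept genes were normalized by TMM, and edgeR 4.0.16 (R 4.3.3) gave the quasi-likelihood test, genotype as the only term, with Benjamini-Hochberg adjustment over all genes and a threshold of 0.05. The test of the authors, limma voom (limma 3.58.1), was an alternative, as were DESeq2 1.42.0, RLE scaling, library sizes without the 20 most abundant genes, no filter, at least 10 reads in every liver, a replicate block and each liver left out. Ratios and correlations used log2 CPM with a prior of 0.5 reads, or 2 as the alternative. Correlations were permuted within genotype (100000 draws), two-sided. Sums added the counts of copies before the fit. The count tests were first tested on simulated data.

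Every member is named. From each list the genes past the threshold are named, or else at most the 2 most abundant, and 3 most-alike genes with at least 1 normalized CPM are given for 4 measures. Members and lists were chosen with earlier results of these data known, so they are no independent support. Some genes of this rule are not reported here. *Aldh3a2*, *Ppara*, *Cd36* and *Vnn1* are named outside this rule, after their values were known.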

Additional observations from a re-analysis of the deposited data

Results flagged for a closer look

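Each of 24 groups of 6 livers, for the 10 genes and the 2 sums in each genotype, was searched for a liver whose gap to the nearest other liver exceeds Dixon's 95% critical value as a share of the range of the group. For normally distributed values chance gives about 1 in 20 groups, and 5 were found. The search used CPM without logs, which were skewed for genes such as *Cyp4a14* (coefficient of variation 143% in WT). Skew can raise the rate of flags, and the rate for such values was not tested, so whether the number found exceeds chance cannot be judged. WT replicate 3 was far above the other WT livers for *Cyp4a14* (share 0.740, with 691 normalized CPM against 197 in the next liver), for *Cyp4a10* (0.674, 561 against 235) and for the *Cyp4a10* sum (0.658, 606 against 279). These 3 flags are not independent, since *Cyp4a10* makes up most of its sum and *Cyp4a14* follows it. LKO replicate 5 was far above the other LKO livers for *Cyp4a10* (0.640, 753 against 432), and LKO replicate 1 was far below them for *Cyp4f15* (0.632, 93.1 against 138). The labels give no condition in which these livers differ from their group.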

How the results depend on the processing

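*Cyp4a12a*, *Cyp4a12b* and the *Cyp4a12* sum kept their direction and stayed past the threshold in all 7 other settings and with each of the 12 livers left out, with log2 fold changes of 0.54 to 0.64, 0.69 to 0.86 and 0.59 to 0.69 over the livers left out. *Cyp4v3* passed in 6 of 7 settings and in 9 of 12 fits with 1 liver left out. The number of the 10 genes past the threshold was 2 or 3 throughout. *Cyp4f15* turned to 0.0007064 on the log2 scale with no filter and lay between −0.087 and 0.077 over the livers left out. Limma voom gave 2.29 for *Cyp4a14* and 1.19 for *Cyp4a10*, past no threshold (adjusted p = 0.230 and 0.265). The levels per kb and the spread of members without single livers, and the medians, were added after seeing the data. The sum of the *Cyp4a10* copies ran from 0.63 to 1.36 over the livers left out.

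The 75 genes past the threshold became 351 with DESeq2 and 114 with no filter, 132 without WT replicate 3 and 38 without WT replicate 5. Of the 120 tested genes in the lists, 1 passed, against 3 with no filter, 2 with limma voom and 7 with DESeq2, and 0 to 8 with 1 liver left out, 8 of them without WT replicate 3, 2 without LKO replicate 4, and 0 without WT replicate 1, 4, 5 or 6 or LKO replicate 1, 2 or 6. The differences of the per-liver ratios ran, over the livers left out, from −2.31 to −1.24 for the *Cyp4a12* sum over *Cyp4a14*, from 1.004 to 1.51 for *Cyp4a14* over the *Cyp4a10* sum and from −0.35 to −0.23 for *Cyp4f14* over *Cyp4f15*. The cause was not tested.

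Same-numbered WT and LKO libraries belong to different mice, and no source used here states that they were paired. Their deviations correlated at −0.065 to 0.135, and 2 of 6 WT libraries correlated best with their own number. These correlations cannot show whether same-numbered mice shared a litter or handling. With the replicate number as a block, 97 genes passed over all and 0 in the lists, and *Cyp4v3* and *Susd4* had adjusted p-values of 0.0546 and 0.0669 (edgeR). The depth of these libraries leaves the *Cyp4a31* level with as few as 65 reads in a liver.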

Other observations

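Among the other PPARA targets, *Cd36*, a fatty acid transporter, had 19.2 ± 13.7 normalized CPM in WT and 52.7 ± 27.5 in LKO livers (SD, n = 6 each). Its log2 fold change of 1.46 did not pass (standard error 0.395, adjusted p = 0.134, edgeR), although 6 of 6 LKO livers were above the WT mean. *Vnn1*, a pantetheinase, had 23.7 ± 11.45 and 51.3 ± 25.5 (SD, n = 6 each), again with 6 of 6 LKO livers above the WT mean (log2 fold change 1.12, standard error 0.325, adjusted p = 0.168, edgeR). Both genes were chosen after their values were seen.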
